A study of Mus musculus with 16 samples.

Results

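The comparison set all mice that received anti-PD-1 against all mice that received isotype IgG, whatever peptide they were given. Its members were all 16 of the 16 T cell samples of the series, 8 for each antibody, chosen from the sample labels and not from any measured value. The control group received scrambled peptide and isotype IgG (n = 4), the ANT008 group ANT008 and isotype IgG (n = 4), the anti-PD-1 group scrambled peptide and anti-PD-1 (n = 4), and the combination group ANT008 and anti-PD-1 (n = 4). All 16 were female C57BL/6 mice that carried KPC.Luc cells, a mouse pancreatic cancer line with luciferase, as tumors under the skin. Dosing started 6 to 7 days after implantation and ran for 10 days, with 10 µg of peptide under the skin each day and 200 µg of antibody into the peritoneum every 3 days. ANT008 is a peptide antagonist of the receptors for vasoactive intestinal peptide. The comparison asks how blocking PD-1 was accompanied by differences in the T cell receptor β (TCRβ) repertoire of the tumor, with the peptide held as a stratum.

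PD-1 is an inhibitory receptor that T cells display after activation, and antibodies against it are used in the clinic to release T cells from that inhibition. Each T cell lineage carries its own TCRβ chain, made by joining a V, a D and a J gene segment. At the joins bases are trimmed and others, not encoded in the genome, are inserted by terminal transferase. The joined stretch encodes the complementarity-determining region 3 (CDR3), through which the chain mainly meets the antigenic peptide, so a rearrangement serves as a tag of a T cell clone and its share of the templates as a measure of the size of that clone.

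The tumors yielded between 7180 and 72588 productive templates (in-frame, as the files class them) per mouse, with a median of 29470 in the IgG mice and 32799 in the anti-PD-1 mice. The shallowest and the deepest library were both of the anti-PD-1 group (scrambled peptide), mouse 4 and mouse 3. The clone-size measures were also computed after each library was drawn down to 7180 templates, called equal depth here. Per the labels, T cells were taken from the tumor suspensions by CD90.2 selection with a purity of 80 to 85%, but that protocol ends with a different RNA assay, and the study text has DNA taken from tumors for TCRβ sequencing. Productive templates equalled 1.75 to 17.7% of the cell number that the files estimate from the input mass, with a median of 7.19% in the IgG mice and 8.02% in the anti-PD-1 mice. Whether the T cells were enriched before sequencing is therefore unsettled. As TCRβ alone was sequenced, neither CD4 and CD8 T cells nor other CD90.2-positive cells can be separated and the label of the cells could not be checked against other markers. The labels name RNA as the material, while the study text names DNA in its results and RNA in its methods. Only if RNA was sequenced could less TCRβ RNA per cell be mistaken for fewer T cells of a clone. Which of them was sequenced is unsettled.

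Repertoires of the anti-PD-1 mice were on average more diverse than those of the IgG mice, and the difference did not pass the test. Shannon's entropy, which grows as clones become more numerous or more even in size, ran from 7.31 to 10.4 bits in the IgG mice with a median of 8.74, and from 8.56 to 11.3 bits in the anti-PD-1 mice with a median of 9.65. The ranges overlapped, with 2 of the 8 anti-PD-1 mice above the highest IgG mouse and none below the lowest. Mean entropy was 8.68 ± 1.07 bits with IgG and 9.70 ± 0.906 bits with anti-PD-1 (SD, n = 8 each). The difference within peptide was 1.02 bits (SE 0.497, two-sided exact permutation p = 0.0571, 0.202 after adjustment over the 11 measures tested this way). It was of like size in both strata, at 1.04 bits under scrambled peptide and 0.99 bits under ANT008, and the interaction was -0.0455 bits (exact permutation p = 0.968). At equal depth the difference was 0.838 bits (SE 0.430, exact permutation p = 0.0706). Leaving out control mouse 3, ANT008 mouse 2 or combination mouse 3 in turn brought the unadjusted p to 0.0184, 0.0257 and 0.0208, and the difference to 1.27, 1.24 and 1.26 bits. Over the omission of each mouse in turn, the exact permutation p ran from 0.0184 to 0.114.

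**Figure D1:**
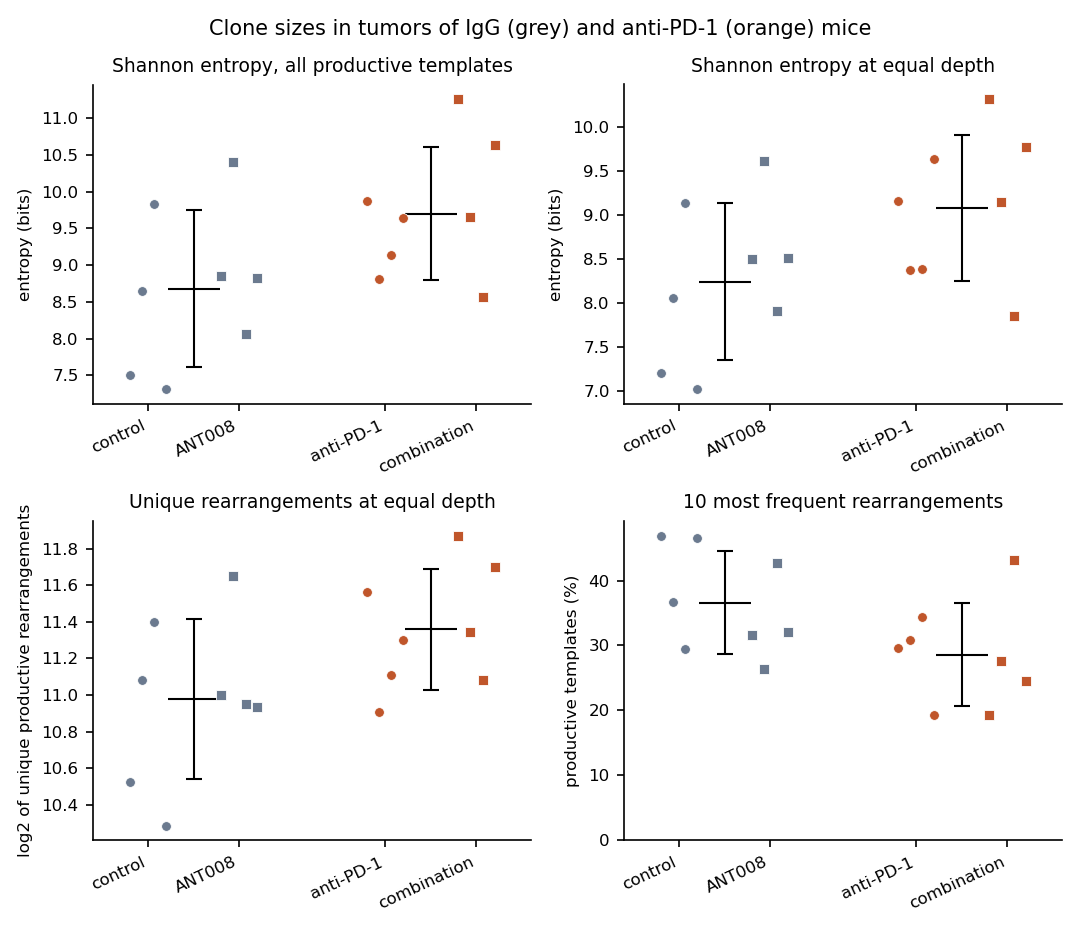
Each point is 1 mouse, grey for IgG and orange for anti-PD-1, circles for scrambled peptide and squares for ANT008. The bars are the mean and SD over the 8 mice of an antibody, and the y axes give entropy in bits, log2 of the number of unique rearrangements, or percent of productive templates. The orange points lie higher on average in the plots of entropy and of unique rearrangements at equal depth and lower in the plot of the top 10 share, with overlap in all 4.

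The most frequent clones held a smaller part of the repertoire in most anti-PD-1 mice, again within the reach of mouse-to-mouse variation. The 10 most frequent rearrangements took from 26.4 to 46.8% of templates in the IgG mice (median 34.4%) and from 19.3 to 43.1% in the anti-PD-1 mice (median 28.6%). Of the 8 anti-PD-1 mice 3 lay below the lowest IgG mouse, whereas combination mouse 3 reached 43.1%. The means were 36.6 ± 7.92% and 28.6 ± 7.93% (SD, n = 8 each), a difference of -7.98 percentage points (SE 4.06, exact permutation p = 0.0678). Rearrangements above 1% of templates held 38.2 ± 9.98% with IgG and 28.5 ± 10.1% with anti-PD-1 (difference -9.70 percentage points, SE 5.11, exact permutation p = 0.0735). Their number was much alike, with a mean of 11.1 per IgG mouse (range 7 to 15) and 9.25 per anti-PD-1 mouse (range 5 to 17). Single mice moved both shares across the threshold. Without combination mouse 3 the top 10 difference was -10.4 percentage points (exact permutation p = 0.00898) and that above 1% was -11.9 percentage points (exact permutation p = 0.0245). Without control mouse 3 they were -9.71 (exact permutation p = 0.0371) and -12.1 percentage points (exact permutation p = 0.0343), and without ANT008 mouse 2 the difference above 1% was -11.4 percentage points (exact permutation p = 0.0396). Other omissions raised p, so that the exact permutation p ran from 0.00898 to 0.149 for the top 10 and from 0.0245 to 0.158 above 1%.

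Clonality is 1 minus the entropy as a share of its maximum for the number of rearrangements seen. It was 0.303 ± 0.0585 with IgG and 0.255 ± 0.0763 with anti-PD-1 (difference -0.0476, SE 0.0333, exact permutation p = 0.179). It moved in the scrambled stratum by -0.0815 and in the ANT008 stratum by -0.0136, and the interaction was 0.0680 (exact permutation p = 0.350). At equal depth the difference was -0.0493 (SE 0.0269, exact permutation p = 0.0853), with -0.0681 under scrambled peptide and -0.0305 under ANT008. Clonality thus still varied with depth. Without combination mouse 3, the mouse with the highest clonality among those given anti-PD-1, the difference was -0.0673 (exact permutation p = 0.0216). Across single omissions the exact permutation p ran from 0.0216 to 0.330.

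More different rearrangements were seen with anti-PD-1, from 2526 to 13939 per mouse (median 11093.5) against 2745 to 10877 with IgG (median 4449). On the log2 scale the difference was 0.63 (SE 0.40, exact permutation p = 0.140), and at equal depth 0.38 (SE 0.19, exact permutation p = 0.0600). At equal depth the counts were 2690 ± 628 with anti-PD-1 and 2100 ± 629 with IgG. Without anti-PD-1 mouse 4, the shallowest library, the full-depth difference was 0.87 (exact permutation p = 0.0318). Across single omissions its exact permutation p ran from 0.0318 to 0.300. The number of productive templates itself differed little, by 0.22 on the log2 scale (SE 0.41, exact permutation p = 0.638), with -0.38 under scrambled peptide and 0.82 under ANT008 (interaction 1.20, exact permutation p = 0.163).

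Out-of-frame rearrangements are carried on the other allele of some T cells and encode no receptor, so they follow the size of a clone without its specificity being read. Their entropy was 8.76 ± 1.22 bits with IgG and 9.79 ± 1.10 bits with anti-PD-1, a difference of 1.03 bits (SE 0.541, exact permutation p = 0.0804). It was 1.69 bits under scrambled peptide and 0.371 bits under ANT008 (interaction -1.32 bits, exact permutation p = 0.276). The files count both in the same libraries, so the pair is no independent measurement.

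Each of the 16 mice had its own leading rearrangement. The most frequent rearrangement held from 5.62 to 18.2% of productive templates in the IgG mice (median 10.8%) and from 5.51 to 18.0% in the anti-PD-1 mice (median 7.44%). The largest clone of each antibody is shown with that of anti-PD-1 mouse 1, which governed the use of a J gene described further on. The letters are the 87-nucleotide window given in the files, 5′ to 3′ on the coding strand, and capitals mark inserted nucleotides.
Control mouse 2, Trbv1 and Trbj2-2, 18.2% of templates: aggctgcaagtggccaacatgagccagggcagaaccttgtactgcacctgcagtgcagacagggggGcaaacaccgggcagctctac
Combination mouse 3, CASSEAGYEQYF, Trbv13-3 and Trbj2-7, 18.0% of templates: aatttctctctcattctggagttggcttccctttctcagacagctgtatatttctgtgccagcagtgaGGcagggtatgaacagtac
Anti-PD-1 mouse 1, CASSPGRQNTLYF, Trbv14 and Trbj2-4, 17.5% of templates: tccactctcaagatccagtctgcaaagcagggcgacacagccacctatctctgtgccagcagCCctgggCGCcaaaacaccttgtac
The 95% Wilson intervals of these shares were 17.8 to 18.6%, 17.7 to 18.3% and 17.1 to 17.9%. They cover counting error only.

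Rearrangements without inserted nucleotides, which the germline segments encode in full and which many individuals can therefore make, took a larger share of templates with anti-PD-1. This was the only 1 of the 11 measures with an unadjusted p below the threshold. The share ran from 4.25 to 9.53% in the IgG mice (median 7.01%) and from 6.79 to 20.4% in the anti-PD-1 mice (median 9.59%), with 4 of 8 anti-PD-1 mice above every IgG mouse and none below every one of them. The means were 7.07 ± 1.78% and 11.1 ± 4.61% (SD, n = 8 each), a difference of 4.06 percentage points (SE 1.74, exact permutation p = 0.0171, adjusted p = 0.189). The difference was 2.84 points under scrambled peptide and 5.29 points under ANT008 (interaction 2.46, exact permutation p = 0.571). Counted once per rearrangement, the share was 8.81 ± 0.802% and 8.98 ± 0.514%, and the difference only 0.177 points (exact permutation p = 0.591). With the most frequent of these rearrangements of each mouse left out, a choice made after the data were seen, the shares were 5.98 ± 1.45% and 8.42 ± 3.45% (difference 2.44 points, exact permutation p = 0.0686).

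Both abundant and rarer clones without insertions held more of the templates on average. Their number was 530 ± 253 per mouse with IgG and 864 ± 365 with anti-PD-1, beside 6182 ± 3218 and 9611 ± 4145 productive rearrangements of all kinds. As a share of unique rearrangements they were thus alike, at a mean of 8.81 and 8.98%. Among rearrangements without insertions, those above 0.1% of templates held 3.27 ± 1.74% of all templates with IgG and 6.48 ± 4.24% with anti-PD-1, while the rest held 3.80 ± 0.907% and 4.65 ± 1.29%. The most frequent of them reached from 0.486 to 2.84% in the IgG mice and from 0.501 to 5.95% in the anti-PD-1 mice. The highest in the anti-PD-1 mice are given as the largest clones of this kind, and as they hold no inserted base none of their letters is in capitals.
Combination mouse 4, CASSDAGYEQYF, Trbv13-3 and Trbj2-7, 5.95% of templates: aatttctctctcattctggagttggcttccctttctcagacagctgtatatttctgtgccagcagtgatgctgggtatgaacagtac
Anti-PD-1 mouse 3, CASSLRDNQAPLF, Trbv3 and Trbj1-5, 5.87% of templates: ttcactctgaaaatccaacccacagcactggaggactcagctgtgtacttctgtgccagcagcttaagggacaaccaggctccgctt
Combination mouse 3, Trbv13-1 and Trbj2-2, 4.11% of templates: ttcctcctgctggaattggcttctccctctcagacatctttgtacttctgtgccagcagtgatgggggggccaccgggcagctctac
The rearrangement of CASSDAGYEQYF without insertions was also the most frequent one of its kind in control mouse 4, at 2.84%, in control mouse 2, at 1.14%, and in ANT008 mouse 2, at 1.14%. The mean number of inserted nucleotides over all templates did not separate the antibodies, at 3.24 ± 0.263 with IgG and 3.31 ± 0.360 with anti-PD-1 (difference 0.0744, SE 0.167, exact permutation p = 0.645).

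**Figure D2:**
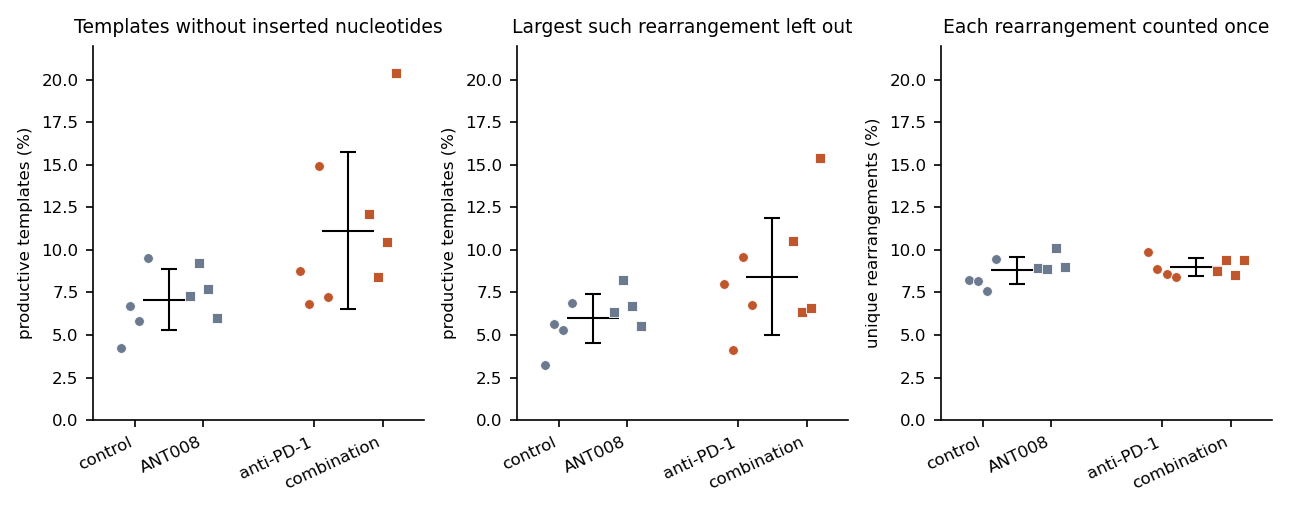
Share of rearrangements without inserted nucleotides in each mouse, as percent of productive templates (left), with the largest such rearrangement of the mouse left out (middle), and as percent of unique rearrangements (right). Points are mice, grey for IgG and orange for anti-PD-1, bars are the mean and SD of 8 mice. Combination mouse 4 stands highest at 20.4% on the left, and the antibodies lie at the same level on the right.

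CDR3 length was close in both arms. The mean length weighted by templates was 41.7 ± 0.788 nucleotides with IgG and 41.2 ± 0.585 with anti-PD-1 (difference -0.543, SE 0.340, exact permutation p = 0.157). It was -0.799 without control mouse 4 (exact permutation p = 0.0343), and across single omissions the exact permutation p ran from 0.0343 to 0.300. CDR3s of 14 codons were the most common class in both, with 27.8 ± 4.21% and 28.4 ± 3.39% of templates, and those of 16 codons held 10.9 ± 7.40% with IgG and 7.13 ± 1.90% with anti-PD-1. The highest IgG mouse in the class of 16 codons had 24.8%.

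The use of V genes did not differ between the antibodies by the test over all genes. Of the 25 V genes tested with edgeR's quasi-likelihood test, 0 passed an adjusted p of 0.05 (0% of V genes tested), 3 had an unadjusted p below 0.05 (12% of those tested), and DESeq2 called 0. The log2 fold change was above 0 for 17 of the 25 (68%) and the median was 0.24. Trbv16 had the lowest p. Its share ran from 3.61 to 16.9% in the IgG mice (median 10.6%) and from 3.30 to 9.99% in the anti-PD-1 mice (median 5.30%), and all 8 anti-PD-1 mice lay below the IgG median. The means were 9.96 ± 4.66% and 5.57 ± 2.04% (log2 fold change -0.83, SE 0.33, edgeR adjusted p = 0.369).

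With the largest Trbv16 CDR3 of each mouse left out, the means were 4.90 ± 2.59% and 3.86 ± 0.754%. In the IgG mice that largest CDR3 made up a median of 51.9% of the Trbv16 templates, and in the anti-PD-1 mice 29.6%. In control mouse 1 it was a Trbv16 and Trbj2-7 CDR3 of 15 residues found in all 8 IgG mice and 7 of the 8 anti-PD-1 mice, with from 0.00268 to 9.14% of templates (median 1.07%) in the former and from 0 to 2.01% (median 0.741%) in the latter. For this CDR3 the log2 fold change was -1.26 (SE 1.99, edgeR adjusted p = 0.902). Its most frequent rearrangement in control mouse 1 is shown as an example of a receptor shared by nearly all mice of either arm.
Control mouse 1, the widely shared CDR3 of Trbv16 and Trbj2-7, 6.74% of templates: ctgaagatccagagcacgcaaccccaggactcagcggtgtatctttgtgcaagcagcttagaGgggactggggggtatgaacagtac

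Among the other V genes with the lowest p, Trbv15 had 1.73 ± 0.500% of templates with IgG and 2.50 ± 0.708% with anti-PD-1 (log2 fold change 0.51, SE 0.24, edgeR adjusted p = 0.369). Of the anti-PD-1 mice 4 lay above every IgG mouse for Trbv15 and 2 below the IgG median. Trbv31, which lies downstream of the constant regions and joins by inversion, had 1.20 ± 0.431% and 1.72 ± 0.572% (log2 fold change 0.53, SE 0.29, edgeR adjusted p = 0.522). Trbv1 had 6.97 ± 7.12% and 3.99 ± 1.52% (log2 fold change -0.75, SE 0.44, edgeR adjusted p = 0.522). Its 2 high values were control mouse 2 at 22.5% and ANT008 mouse 2 at 12.5%, and without the largest CDR3 of each mouse it stood at 3.06 ± 1.06% and 3.15 ± 1.08%. Trbv22 and Trbv10, listed by RefSeq as pseudogenes, had log2 fold changes of 1.93 (SE 0.89, edgeR adjusted p = 0.369) and 1.58 (SE 1.08, edgeR adjusted p = 0.648). Both rested on 1 mouse, Trbv22 on combination mouse 1 with 1.90% of templates, of which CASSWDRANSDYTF made 1.76%, and Trbv10 on anti-PD-1 mouse 3 with 0.665%. Without combination mouse 1 the log2 fold change of Trbv22 was 0.29.

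**Figure D3:**
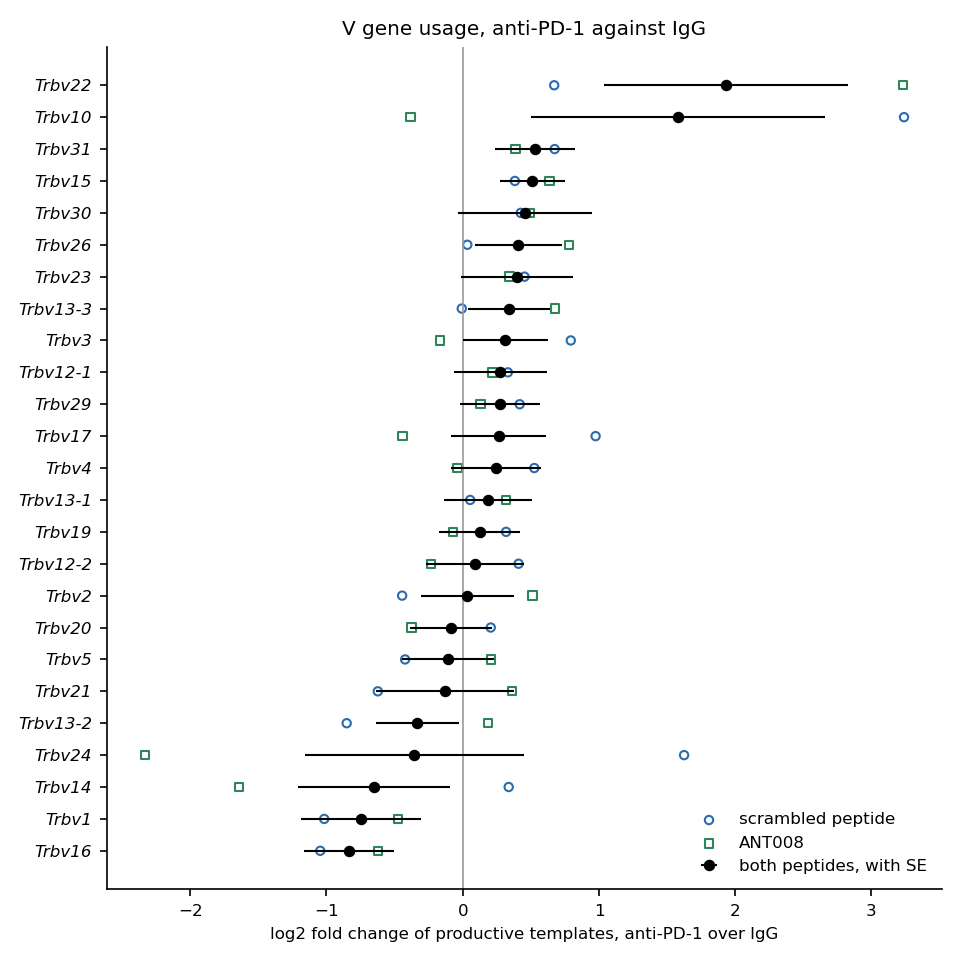
Log2 fold change of productive templates of the 25 V genes, anti-PD-1 over IgG, from edgeR. Black points with bars are the estimate over both peptides and its SE, derived from the test statistic. Open circles are the scrambled stratum and open squares the ANT008 stratum. Trbv16 lies lowest at -0.83 and Trbv22 highest at 1.93, and the strata of Trbv24 lie on opposite sides of 0.

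Invariant natural killer T cells, which see lipids on CD1d, use few β-chain V genes, chiefly those of the Trbv13 family, Trbv29 and Trbv1. These 5 genes (Trbv13-1, Trbv13-2, Trbv13-3, Trbv29 and Trbv1) formed a list. Conventional T cells use them as well, and none of the 5 marks such cells alone. Of the 5, 3 had a log2 fold change above 0 and 2 below, 0 passed the test, and the median was 0.19 beside 0.24 over all 25 V genes. Their summed share ran from 19.9 to 49.9% with IgG (median 30.8%) and from 25.7 to 44.8% with anti-PD-1 (median 31.3%). The means were 33.1 ± 10.4% and 32.8 ± 5.97% (difference -0.245 percentage points, SE 4.08, exact permutation p = 0.956). This averages a difference of -7.09 points under scrambled peptide and 6.59 points under ANT008 (interaction 13.7, exact permutation p = 0.106).

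For Trbv24 the effect of anti-PD-1 differed between the peptides. This was 1 of the 25 V genes tested for the interaction (4%), and the gene was named after its value was seen. The log2 fold change was 1.63 under scrambled peptide and -2.33 under ANT008, with an interaction of -3.96 (SE 1.00, edgeR adjusted p = 0.0157). In the control mice Trbv24 held 0.946, 0.657, 0.790 and 0.397% of templates. In the ANT008 mice it held 0.776, 1.44, 8.29 and 8.18%. In the anti-PD-1 group it held 0.677, 0.889, 6.10 and 0.905%, and in the combination group 1.16, 0.970, 0.707 and 0.865%. Thus 3 mice had more than 2% and the other 13 lay between 0.397 and 1.44%. The leading clones of these 3 mice are shown, since they made up most of the gene's templates there.
ANT008 mouse 3, Trbv24 and Trbj2-5, 7.49% of templates: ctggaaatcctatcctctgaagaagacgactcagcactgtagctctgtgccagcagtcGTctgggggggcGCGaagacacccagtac
ANT008 mouse 4, Trbv24 and Trbj2-3, 5.03% of templates: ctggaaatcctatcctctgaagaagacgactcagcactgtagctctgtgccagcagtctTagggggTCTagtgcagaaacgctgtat
Anti-PD-1 mouse 3, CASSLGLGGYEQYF, Trbv24 and Trbj2-7, 5.27% of templates: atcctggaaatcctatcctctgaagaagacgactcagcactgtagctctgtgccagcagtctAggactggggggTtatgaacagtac
The 3 clones had different CDR3s and J genes. All 3 windows held a stop codon in the reading frame, in the V gene part before the CDR3, as did 99.9% of all Trbv24 templates (2023 of 2032 rearrangements). Among the other V genes tested this share was at most 0.537%. The files class these rearrangements as in-frame, but read from the window as given they encode no full chain. Counted as unique rearrangements the interaction was -0.35 (edgeR adjusted p = 0.199), with TMM factors -3.89 (adjusted p = 0.0518), and with the replicate number as a block -2.94 (adjusted p = 0.167). It also failed the threshold without anti-PD-1 mouse 3 (-2.57, edgeR adjusted p = 0.0913), without ANT008 mouse 4 (-3.54, edgeR adjusted p = 0.0768) and without control mouse 4 (-3.76, edgeR adjusted p = 0.0704).

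**Figure D4:**
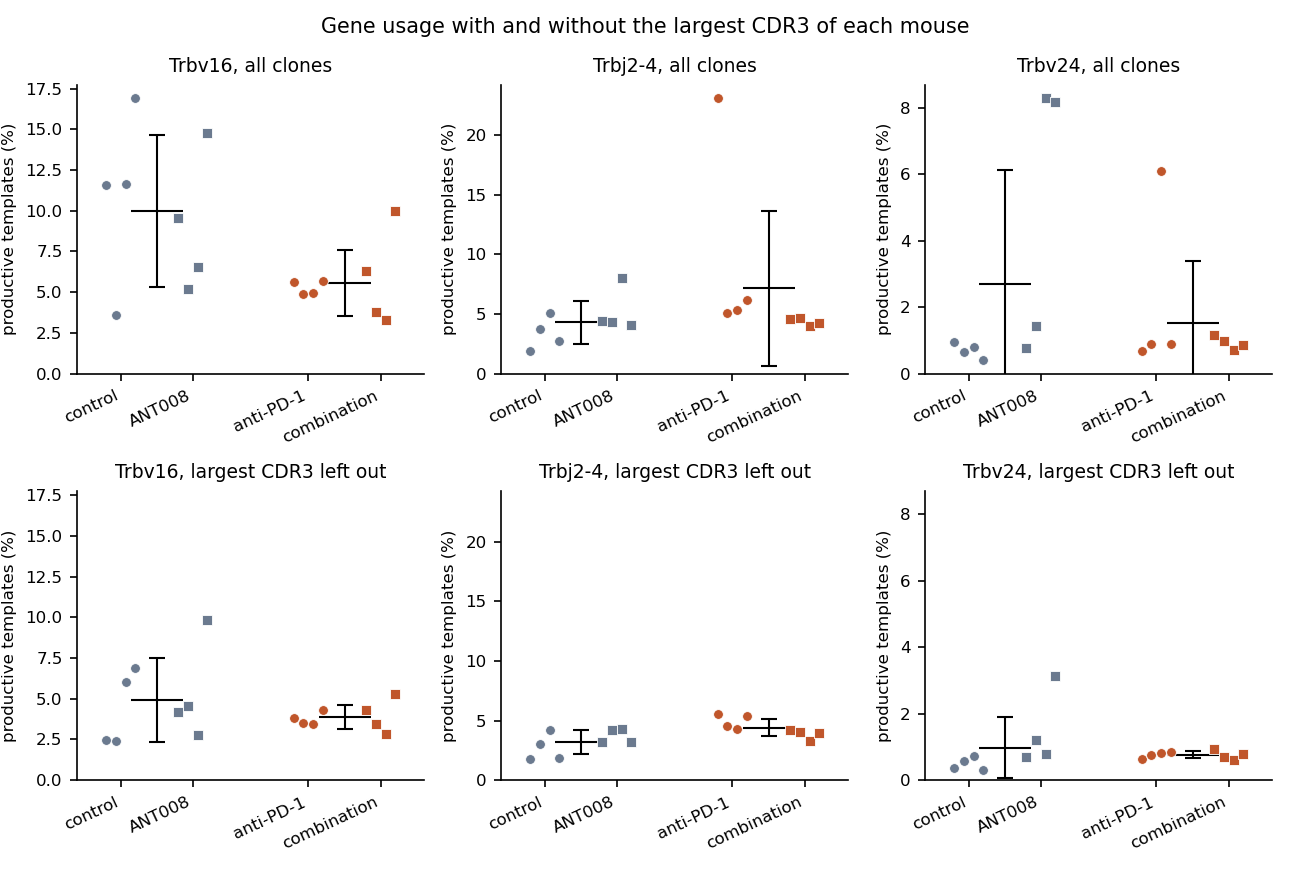
Percent of productive templates of Trbv16, Trbj2-4 and Trbv24 in each mouse (top) and after the largest CDR3 of that gene in that mouse was left out (bottom, on the same scale). Points are mice, grey for IgG and orange for anti-PD-1, bars are the mean and SD of 8 mice and are cut at 0. The values of 23.1% for Trbj2-4 in anti-PD-1 mouse 1 and of 6.10 to 8.29% for Trbv24 in 3 mice are no longer seen in the lower plots, where ANT008 mouse 4 keeps 3.14% of Trbv24.

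In edgeR 0 of the 12 J genes were called at an adjusted p of 0.05 (0% of J genes tested), none had an unadjusted p below 0.05, and DESeq2 called 0. Trbj1-3 had the lowest p, from 2.22 to 8.50% of templates with IgG (median 3.29%) and from 3.71 to 11.5% with anti-PD-1 (median 4.62%). All 8 anti-PD-1 mice lay above the IgG median. The means were 3.98 ± 2.07% and 5.99 ± 2.80% (log2 fold change 0.60, SE 0.29, edgeR adjusted p = 0.617). Trbj2-4 had 4.30 ± 1.82% and 7.16 ± 6.49% (log2 fold change 0.65, SE 0.40, edgeR adjusted p = 0.703). Anti-PD-1 mouse 1 alone stood at 23.1%, through the clone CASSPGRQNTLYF printed above. Without the largest CDR3 of each mouse Trbj2-4 was at 3.21 ± 1.00% and 4.40 ± 0.740%. Trbj2-1 had 15.7 ± 6.05% and 12.7 ± 3.18% (log2 fold change -0.25, SE 0.23, edgeR adjusted p = 0.703). Under scrambled peptide and ANT008 the log2 fold changes were 0.29 and -0.79 for Trbj2-1, and 1.55 and -0.25 for Trbj2-4. The interaction had an edgeR adjusted p of 0.0741 for each gene.

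The Trbj1 and Trbj2 genes follow the Trbd1 and Trbd2 genes, and the share of the Trbj2 cluster tells how often the downstream cluster was joined. Of the 6 Trbj1 genes 3 had a log2 fold change above 0 and 3 below, with a median of -0.02, and of the 6 Trbj2 genes 3 were above and 3 below, with a median of -0.03, beside -0.03 over all 12. The Trbj2 cluster held 72.3 ± 4.18% of templates with IgG and 72.0 ± 5.02% with anti-PD-1 (difference -0.318 percentage points, SE 2.46, exact permutation p = 0.894).

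Pairs of V and J genes gave more unadjusted differences, and again none passed the adjusted test in edgeR. Of 246 pairs 0 were called by edgeR (0% of pairs tested) and 31 had an unadjusted p below 0.05 (12.6% of pairs tested), 20 of them higher with anti-PD-1 (8.13%) and 11 lower (4.47%). DESeq2 called 11 of the 214 pairs it tested at an adjusted p of 0.05. Of these 3 were higher and 8 lower with anti-PD-1. DESeq2 scaled the libraries by its own size factors, and the threshold and the pairs tested differed too. The directions can thus not be set directly against those of the unadjusted differences in edgeR. The log2 fold change was above 0 in 61.4% of the pairs. Trbv16 with Trbj1-3 had the lowest p. It held from 0.0269 to 0.130% of templates with IgG (median 0.0904%) and from 0.0696 to 4.84% with anti-PD-1 (median 0.256%), and 6 of the 8 anti-PD-1 mice lay above every IgG mouse. The means were 0.0868 ± 0.0391% and 0.994 ± 1.67% (log2 fold change 3.38, SE 0.80, edgeR adjusted p = 0.0900). The 2 highest mice owed their values to the clones shown.
Combination mouse 4, Trbv16 and Trbj1-3, 4.69% of templates: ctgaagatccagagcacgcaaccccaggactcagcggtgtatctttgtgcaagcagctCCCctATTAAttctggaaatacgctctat
Anti-PD-1 mouse 1, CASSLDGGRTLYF, Trbv16 and Trbj1-3, 1.82% of templates: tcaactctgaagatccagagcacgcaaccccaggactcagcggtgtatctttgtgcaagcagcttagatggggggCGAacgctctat
With the largest CDR3 of each mouse left out the pair held 0.0528 ± 0.0334% with IgG and 0.0991 ± 0.0259% with anti-PD-1. It passed the threshold without anti-PD-1 mouse 4 (log2 fold change 3.59, edgeR adjusted p = 0.0423), and with all mice in DESeq2 (log2 fold change 2.89, adjusted p = 0.00494). Across single omissions its edgeR adjusted p ran from 0.0423 to 0.360.

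Trbv13-3 with Trbj1-3 held 0.0959 ± 0.0554% with IgG and 0.281 ± 0.242% with anti-PD-1 (log2 fold change 1.54, SE 0.47, edgeR adjusted p = 0.225, DESeq2 adjusted p = 0.0313), and all 8 anti-PD-1 mice lay above the IgG median. Its most frequent rearrangement encoded the same CDR3, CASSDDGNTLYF, in anti-PD-1 mice 1 and 3 and in combination mouse 4. Trbv14 with Trbj1-3 went the other way, with 0.328 ± 0.512% and 0.0428 ± 0.0267% (log2 fold change -2.99, SE 0.87, edgeR adjusted p = 0.225). Its IgG mean came from ANT008 mouse 4 at 1.31% and control mouse 2 at 0.973%.

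Public CDR3s are amino acid sequences found in several mice. Those found in at least 4 of the 16 mice numbered 2188 of 92981, and they held a median of 26.0% of templates in the IgG mice and 23.4% in the anti-PD-1 mice. The edgeR test called 0 of the 2188 at an adjusted p of 0.05 (0% of those tested), 240 had an unadjusted p below 0.05 (11% of those tested), and DESeq2 called 0. Of the 240, 173 were higher with anti-PD-1 (7.91% of those tested) and 67 lower (3.06% of those tested). The log2 fold change was above 0 in 58.1% of all 2188. The list was drawn by presence at full depth in these same mice, so these directions are shaped by that selection.

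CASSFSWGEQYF had the lowest p. It held 14.5% of templates in control mouse 1, 2.84% in ANT008 mouse 1, 0.0603% in control mouse 3 and 0.00243% in control mouse 2, and it was at 0 in the other 4 IgG mice and in all 8 anti-PD-1 mice. A count of 0 allows up to 3 templates per library, a mean share of 0.0124% over the anti-PD-1 mice, so its mean of 2.17% with IgG was at least 175-fold higher, and at least 33.4-fold higher without control mouse 1 (edgeR adjusted p = 0.0767). It met the filter of 4 mice through IgG mice alone. Its p and folds are thus shaped by that selection and are no support for a difference. The 2 mice in which it was abundant encoded it with different nucleotides, as the printed rearrangements show.
Control mouse 1, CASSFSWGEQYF, Trbv14 and Trbj2-7, 14.3% of templates: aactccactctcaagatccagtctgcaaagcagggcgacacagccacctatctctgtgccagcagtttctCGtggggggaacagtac
ANT008 mouse 1, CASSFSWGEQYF, Trbv14 and Trbj2-7, 2.81% of templates: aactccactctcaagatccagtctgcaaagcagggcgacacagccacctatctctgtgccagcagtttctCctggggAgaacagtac
The next CDR3s by p among those lower with anti-PD-1 also rested on few mice. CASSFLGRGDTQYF was found in 4 IgG mice, up to 0.891%, and in 0 anti-PD-1 mice (at least 12.4-fold higher with IgG, at least 3.93-fold without ANT008 mouse 4, edgeR adjusted p = 0.169). It too met the filter through IgG mice alone, with the same limit. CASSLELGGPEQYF was found in 3 IgG mice, with 10.1% in control mouse 4, and in 1 anti-PD-1 mouse as 1 template (edgeR adjusted p = 0.169). Its mean was 1.28% with IgG and 0.0231% without control mouse 4.

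In the other direction, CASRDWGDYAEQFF was found in 0 IgG mice and in 4 anti-PD-1 mice, at 0.947% in anti-PD-1 mouse 4, 0.162% in combination mouse 3, 0.00316% in anti-PD-1 mouse 2 and 0.00138% in anti-PD-1 mouse 3. Its mean was at least 11.4-fold higher with anti-PD-1, and at least 1.95-fold higher without anti-PD-1 mouse 4 (edgeR adjusted p = 0.169). This CDR3 met the filter through anti-PD-1 mice alone, so these values are no support for a difference. Its leading rearrangement held 1 inserted base in anti-PD-1 mouse 4 and 0 in combination mouse 3.
Anti-PD-1 mouse 4, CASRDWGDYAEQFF, Trbv13-3 and Trbj2-1, 0.919% of templates: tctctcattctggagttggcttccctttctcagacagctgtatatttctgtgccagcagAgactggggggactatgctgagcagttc
Combination mouse 3, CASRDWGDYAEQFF, Trbv13-3 and Trbj2-1, 0.157% of templates: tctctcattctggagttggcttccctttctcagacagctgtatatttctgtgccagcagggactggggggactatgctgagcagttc
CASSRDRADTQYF (4 anti-PD-1 mice, up to 0.0311%) and a CDR3 of 15 residues joined to Trbj2-2 (5 anti-PD-1 mice, up to 0.0689%) were at 0 in all 8 IgG mice, with an edgeR adjusted p of 0.169 each. Their means were at or near the share that 3 templates per library allow, and both met the filter through anti-PD-1 mice alone.

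Presence alone leaned to the anti-PD-1 mice. Of the 2188 public CDR3s, 1179 were found in more anti-PD-1 than IgG mice and 453 in more IgG than anti-PD-1 mice, and 106 were in no IgG mouse against 11 in no anti-PD-1 mouse. At equal depth the first pair of counts was 875 and 669 and the second 584 and 384. The 2188 were picked by presence at full depth in these same mice, and the equal-depth counts reuse that list. All these counts are thus shaped by that selection and are no support for a difference. The anti-PD-1 mice had a median of 10051 different CDR3s at full depth and the IgG mice 4049. The part of this difference in the counts of presence was not tested. Only 5 CDR3s were in at least 6 anti-PD-1 mice and 0 IgG mice, and 0 were the other way round. All 5 met the filter through anti-PD-1 mice alone. These 5, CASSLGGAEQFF and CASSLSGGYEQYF (7 mice each) and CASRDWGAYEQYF, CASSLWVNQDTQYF and a CDR3 of 15 residues joined to Trbj2-1 (6 mice each), reached at most 0.0332% of templates, and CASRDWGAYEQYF had 1 or 2 templates in each of its 6 mice.

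None of the CDR3s found most widely passed the test, and their errors were wide. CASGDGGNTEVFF, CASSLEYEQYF, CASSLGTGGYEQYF, a CDR3 of 15 residues joined to Trbj1-4 and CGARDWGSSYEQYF were in all 16 mice, with log2 fold changes of -0.27, 1.01, 0.85, 0.09 and 1.06, with SEs from 1.44 to 1.85 and edgeR adjusted p from 0.880 to 0.994. Among CDR3s that ranked in the top 50 of several mice, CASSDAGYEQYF was found in 8 IgG mice (median 1.03%, highest 5.38%) and 6 anti-PD-1 mice (median 0.728%, highest 6.04%). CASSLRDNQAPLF was found in 6 mice of each antibody, with medians of 0.342 and 0.176% and highest values of 5.83 and 5.92%. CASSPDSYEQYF was found in 7 IgG mice (median 0.102%) and 8 anti-PD-1 mice (median 0.471%), and was in the top 50 of 3 and 6 of them (log2 fold change 0.52, SE 2.39, edgeR adjusted p = 0.992).

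Mice given anti-PD-1 did not share measurably more or less of their repertoire with each other than mice given IgG. The Morisita-Horn index, which is 0 for no overlap and 1 for identical repertoires, had a mean of 0.0374 over the 28 pairs of anti-PD-1 mice and 0.0326 over the 28 pairs of IgG mice (difference 0.00484, exact permutation p = 0.869), and of 0.0428 over the 64 pairs across antibodies. The highest value of all, 0.283, was between ANT008 mouse 4 and anti-PD-1 mouse 2, whose leading clones had the same CDR3, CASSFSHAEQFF. The highest within anti-PD-1 was 0.191, between anti-PD-1 mouse 3 and combination mouse 4, and the highest within IgG 0.225, between control mouse 1 and ANT008 mouse 1. Of the CDR3s in the top 50 of each mouse, 23 were shared by at least 2 of the 8 anti-PD-1 mice and 22 by at least 2 of the 8 IgG mice (difference 1, exact permutation p = 0.894), and 10 were in both sets. With the top 20 the counts were 6 and 9, and with the top 100 they were 39 and 54 (exact permutation p = 0.173 and 0.0576).

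**Figure D5:**
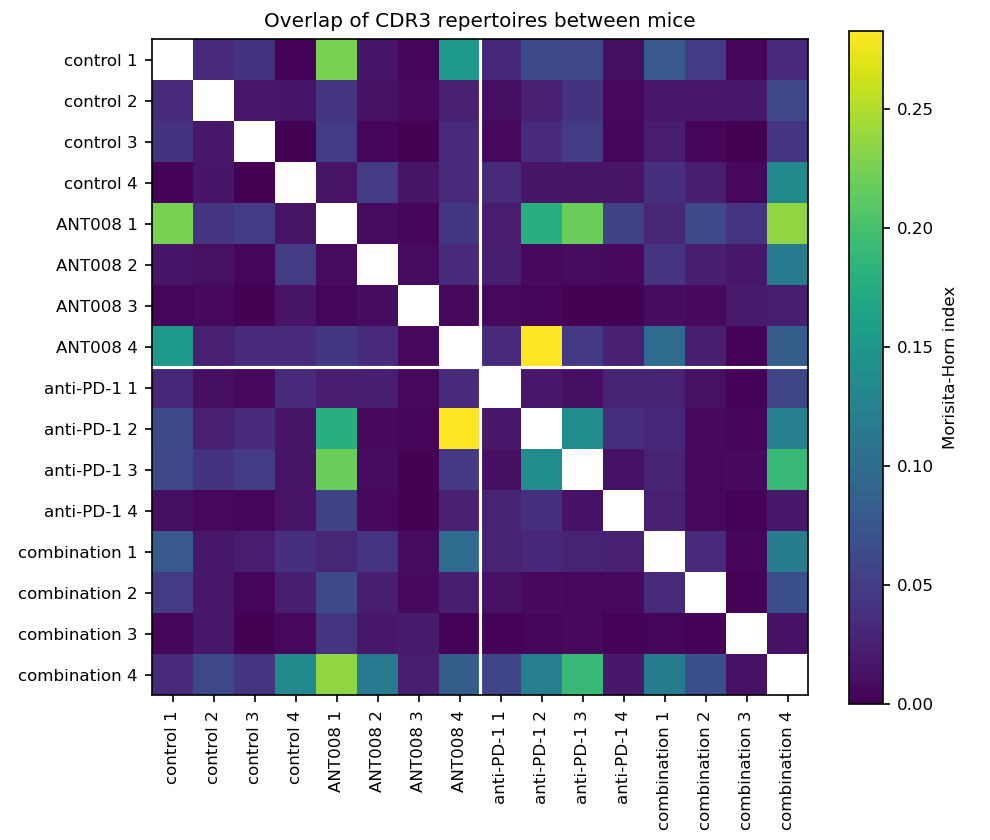
Morisita-Horn index between the CDR3 repertoires of each pair of the 16 mice, on a colour scale that starts at 0, with the diagonal left blank. White lines part the 8 IgG mice from the 8 anti-PD-1 mice. The brightest field, 0.283, joins an IgG mouse, ANT008 mouse 4, with anti-PD-1 mouse 2, and neither block on the diagonal stands out.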

How the data were processed

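The immunoSEQ assay (Adaptive Biotechnologies) amplifies TCRβ rearrangements by multiplex PCR, and the authors deposited, per the file headers, 1 table per mouse with template counts for each rearrangement, with its V, D and J gene calls, frame class and junction bases. Amplification bias was corrected upstream; the version of that pipeline and the genome build are not given in the sources used here. The deposited entropy (bits, log2) and clonality (a fraction) were recomputed from the template counts, and entropy differed by at most 4.82e-07.

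Rows classed in-frame were used, with templates as counts. Measures were compared by an exact two-sided permutation of the antibody label within each peptide (4900 assignments, smallest p 0.000408), and 11 measures were adjusted together by Benjamini-Hochberg. The effect is the mean of both within-peptide differences. Counts per V gene, J gene, V-J pair and public CDR3 were tested with edgeR 4.0.16 (quasi-likelihood, peptide and antibody as terms, library size the productive templates, R 4.3.3), for features with at least 10 templates in at least 4 mice, or CDR3s in at least 4 mice. The SE of an edgeR log2 fold change was derived from its test, as the absolute change over the square root of the F statistic. DESeq2 1.42.0 was an alternative. Other steps used Python 3.11.15, numpy 2.4.6, pandas 2.3.3 and scipy 1.17.1. The tests were checked on simulated data. All 25 V and 12 J genes matched a symbol in RefSeq. Named CDR3s were those with the lowest p in each direction, those found in most mice, those in the top 50 of at least 3 mice of a group and those in at least 6 mice of 1 antibody and 0 of the other. The comparison and lists were chosen with earlier results of these data known. Each label is 1 mouse. Mice are numbered as in the labels, and sample names within the files gave the same number for 3 of 16. Correlations of mice with the same number in the labels ran from -0.321 to 0.326 between groups. With 4 mice per group and related measures pooled, they cannot exclude that samples were paired. Pairing by the numbers within the files was not tested. Wilson intervals (95%) and floors of 3 templates cover counting error only.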

Additional observations from a re-analysis of the deposited data

Results flagged for a closer look

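In a group of 4 mice, the highest or lowest value was singled out when its gap to the nearest mouse was, as a part of the group's range, above Dixon's 95% critical value. For normally distributed values chance does so in about 1 in 20 groups. Here 36 of 176 groups did, and many of them concern CDR3s and genes that were named for extreme values. In some groups all other mice were at 0, where that rate need not hold.

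Among the measures of the whole repertoire these were the number of unique rearrangements in combination mouse 2 (12.70 on the log2 scale, the lowest of its group) and the mean of 2.58 inserted nucleotides in anti-PD-1 mouse 3, also the lowest. Among V genes they were Trbv22 in combination mouse 1 (1.90% of templates), Trbv1 in control mouse 2 (22.5%) and ANT008 mouse 2 (12.5%), and in anti-PD-1 mouse 3 both Trbv10 (0.665%) and Trbv24 (6.10%). Among J genes they were Trbj1-3 in anti-PD-1 mouse 1 (6.52%), Trbj2-4 in ANT008 mouse 3 (8.05%) and anti-PD-1 mouse 1 (23.1%), and Trbj2-1 in anti-PD-1 mouse 2 (19.7%).

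Among V-J pairs, Trbv16 with Trbj1-3 stood apart in anti-PD-1 mouse 1 (1.95%) and combination mouse 4 (4.84%). Trbv14 with Trbj1-3 did so in control mouse 2 (0.973%) and ANT008 mouse 4 (1.31%), and Trbv13-3 with Trbj1-3 in ANT008 mouse 2 (0.216%).

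Among CDR3s of the IgG mice, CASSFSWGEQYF stood apart in control mouse 1 (14.5%) and ANT008 mouse 1 (2.84%), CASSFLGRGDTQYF in control mouse 1 (0.315%) and ANT008 mouse 4 (0.891%), and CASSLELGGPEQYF in control mouse 4 (10.1%) and ANT008 mouse 4 (0.144%). The widely shared CDR3 of Trbv16 and Trbj2-7 did so in control mouse 1 (9.14%), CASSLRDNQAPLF in ANT008 mouse 1 (5.83%), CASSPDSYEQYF in control mouse 4 (1.08%) and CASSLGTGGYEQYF in ANT008 mouse 3 (0.0173%).

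Among CDR3s of the anti-PD-1 mice, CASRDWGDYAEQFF stood apart in anti-PD-1 mouse 4 (0.947%) and combination mouse 3 (0.162%), a CDR3 of 15 residues joined to Trbj2-1 in the same mice (0.0279% and 0.0290%), and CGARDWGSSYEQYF in anti-PD-1 mouse 4 (0.0696%). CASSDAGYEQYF (1.82%) and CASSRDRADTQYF (0.0311%) did so in anti-PD-1 mouse 1, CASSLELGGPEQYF in anti-PD-1 mouse 3 (0.00138%, 1 template), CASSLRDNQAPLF in combination mouse 4 (4.59%) and a CDR3 of 15 residues joined to Trbj2-2 in combination mouse 1 (0.0689%).

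The effect of anti-PD-1 on Trbv24 differed between the peptides by -3.96 on the log2 scale (interaction term in edgeR, adjusted p = 0.0157). The 3 mice behind it each carried an abundant Trbv24 rearrangement with a stop codon before the CDR3. In ANT008 mouse 4 the other Trbv24 CDR3s held a further 3.14% of templates.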

How the results depend on the processing

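The share without inserted nucleotides, the only measure with an unadjusted p below the threshold, was no longer past it with each rearrangement counted once (0.177 points), with the largest such rearrangement left out (2.44 points, a choice made after the data were seen), or with the replicate number as a block (4.06 points, exact permutation p = 0.0703), and lay from 2.80 to 4.80 points without single mice. With rearrangements weighted by templates, the replicate block changed no other call of the measures and no number of genes, pairs or CDR3s called. It did take the Trbv24 interaction out of the calls (-2.94 on the log2 scale, edgeR adjusted p = 0.167). Counted once per rearrangement, it took the Trbj2 share past the threshold (exact permutation p = 0.0739 without and 0.00781 with the block), and the interaction on inserted nucleotides no longer passed it (0.164 nucleotides, exact permutation p = 0.0171 without and 0.0625 with the block). Counted once per rearrangement, the differences turned in sign for CDR3 length (0.0444 nucleotides), inserted nucleotides (-0.0225), the Trbj2 share (0.695 points) and the natural killer T cell list (0.354 points). DESeq2 called 11 of 214 V-J pairs against 0 of 246 by edgeR, and counting unique rearrangements called 1 public CDR3, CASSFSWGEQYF (log2 fold change -5.59, edgeR adjusted p = 1.84e-05). That CDR3 met the filter of 4 mice through IgG mice alone, so its p is no support for a difference. Clones shared within an antibody differed by -3 for the top 20, -15 for the top 100 and -1 for nucleotide rearrangements.

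Without single mice the ranges were 0.812 to 1.27 bits for entropy, -0.549 to 0.443 bits for its interaction, -0.0673 to -0.0289 for clonality, -10.4 to -6.40 points for the top 10, -12.1 to -7.20 points above 1%, 0.46 to 0.87 for unique rearrangements (log2) and -0.018 to 0.54 for templates (log2). They were -0.799 to -0.368 nucleotides for CDR3 length, -1.47 to 1.00 points for Trbj2, -2.16 to 2.15 points for the natural killer T cell list, 0 to 1 V-J pairs, 0 to 1 public CDR3s, -0.0110 to 0.0167 for overlap and -4 to 8 shared clones.

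On the log2 scale, counting unique rearrangements turned the sign of Trbv22 (-0.21), Trbv15 (-0.031), Trbv10 (-0.088), Trbj2-1 (0.066), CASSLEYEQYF (-0.069), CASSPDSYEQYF (-0.025), the 15-residue CDR3 joined to Trbj1-4 (-0.41) and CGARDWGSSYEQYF (-0.36). DESeq2 turned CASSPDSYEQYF (-0.40) and the 15-residue CDR3 (-0.24), and equal depth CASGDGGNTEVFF (0.11). Single mice moved Trbv10 from -0.31 to 2.14, Trbv24 from -1.12 to 0.0014, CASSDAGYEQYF from -1.31 to 0.62, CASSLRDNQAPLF from -0.54 to 4.06, the 15-residue CDR3 from -0.060 to 0.50 and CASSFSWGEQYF from -12.37 to -8.89 (edgeR adjusted p from 0.0498, without ANT008 mouse 4, to 0.247). The cause of these shifts was not tested. Depth limits rare CDR3s most, since 3 templates are a mean share of 0.0124% in the anti-PD-1 mice.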

Other observations

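Out-of-frame rearrangements were also counted per V gene. By edgeR 0 of 25 V genes passed an adjusted p of 0.05, 5 had an unadjusted p below 0.05 (20% of those tested), and DESeq2 called 0. These 5 were Trbv26 (log2 fold change 0.89), Trbv14 (0.67) and Trbv17 (0.70), which were higher with anti-PD-1, and Trbv3 (-1.02) and Trbv22 (-1.01), which were lower, each with an edgeR adjusted p of 0.188.

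Templates with a stop codon in the reading frame before the CDR3 made up 2.08% of all templates classed as in-frame, nearly all of them with Trbv24. Measures of clone size given above include them.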
